A study of Mus musculus with 2 samples.

Results

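Pleiotrophin (Ptn), midkine (Mdk) and the 4 syndecans (Sdc1, Sdc2, Sdc3 and Sdc4) were followed through the cells of limb tendon in mouse pups at P7. PTN and MDK are small secreted cytokines that bind heparin and form a family of their own. Both are prominent in embryonic tissue and around growing cartilage, bone and nerve. Syndecans are transmembrane proteins of the cell surface whose outer part carries heparan sulphate chains. These chains hold PTN, MDK and many growth factors, and syndecan-3 is known as a binding site for PTN on nerve cells. All 6 symbols were found, out of 27998 genes in the count tables, and all 6 had UMIs in both libraries. They were taken by name as a ligand and receptor family, with earlier results of these data known.

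The data hold 2 libraries of single cells, wild-type and mutant by their labels. Each came from enzymatically released cells of the fore- and hindlimb tendons of 2 pooled pups. In the mutant (Tgfbr2;ScxCre), floxed Tgfbr2, the type II receptor of TGFβ, was deleted by Cre recombinase driven by Scleraxis (Scx), the transcription factor that marks tendon cells. All mice of the study, controls included, carried the tendon reporter ScxGFP and the Cre reporter Ai14 Rosa26-tdTomato. The control is called wild-type by its title and genotype, while another label of it reads Het, so its Tgfbr2 and Cre alleles are not fully given. ScxCre activity is not uniform between tendon cells of embryos. The paper reports that targeting becomes complete only soon after birth. In its immunostaining, mutant tendons had lost nearly all of the receptor protein by birth. The Scx count takes in transcripts of ScxGFP by the study's own account, so the Scx classes and bins used here do not measure endogenous Scx alone. Each mRNA molecule was counted once at its 3′ end by a unique molecular identifier (UMI), whatever the length of the transcript. Levels are in CPM (UMIs per 1000000 UMIs of a cell class). They are set side by side between genes here, but whether genes are captured equally well at the 3′ end was not checked. The wild-type library held 2364 cells and 9451606 UMIs, and the mutant library 2592 cells and 8250248 UMIs. With 1 library per condition nothing could be tested, and a batch effect and the genotype cannot be told apart. Intervals are given at 95% throughout and cover counting error only.

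Cells were put into classes by marker genes that do not include any of the 6 genes. Scx-high cells had 30 or more Scx UMIs per 10000 UMIs of the cell, and were 1157 cells in the wild-type library and 222 in the mutant one. Scx-low fibroblasts had 5 or more UMIs over Ly6a, Cd34, Dpt, Lum and Col3a1, and were 719 and 1824 cells. In mutant tendons the paper traced cells without ScxGFP back to tenocytes, and it calls them dedifferentiated. It lists all of these fibroblast markers among the genes raised in them. Scx-low fibroblasts of the libraries share a marker rule, and whether they are the same type of cell was not tested. There were 139 and 82 mural cells (pericytes and smooth muscle), 22 and 24 endothelial cells and 192 and 187 immune cells. Not all markers held out of the assignment followed the classes. Of the fibroblast ones, Pdgfra, Pi16 and Clec3b were higher in Scx-low fibroblasts than in Scx-high cells of both libraries. Dpp4 was at 49.8 CPM in Scx-high cells and 49.3 in Scx-low fibroblasts of the wild-type library. Mfap5 was at 1601 and 1777 in these classes of the mutant library. Tnmd, a tendon membrane protein, was at 7471 CPM in Scx-high cells and 1180 (1179.5) in Scx-low fibroblasts of the wild-type library, and at 5641 and 1047 in the mutant library. Mural cells held Acta2, endothelial cells Emcn and immune cells C1qa. Near the Scx threshold lay 25 wild-type and 22 mutant fibroblasts at 20 to under 30 and 27 and 29 Scx-high cells at 30 to under 45. At a threshold of 20 the Scx-high classes held 1189 wild-type and 248 mutant cells, and at 50 they held 1123 and 186.

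Scx-high cells of the libraries differed in more than number. The paper describes cells that kept ScxGFP in mutant tendons as newly recruited, since some had weak or no signal of the Cre reporter. Mutant Scx-high cells therefore need not be tenocytes that lost Tgfbr2, and their origin was not tested here. Fibroblast markers reached 5 UMIs in 183 of the wild-type Scx-high cells (15.8%) and in 178 of the mutant ones (80.2%), and the fibroblast gene Mfap5 was at 55.4 against 1601 CPM. Col2a1, a cartilage collagen, had 2 or more UMIs in 76.1% of the wild-type and 12.6% of the mutant Scx-high cells. Median depth was 4291 and 4260 UMIs per Scx-high cell, and 3588 and 2883 per Scx-low fibroblast. Tgfbr2 itself was at 30.5 and 47.9 CPM in Scx-high cells and at 73.2 and 72.2 in Scx-low fibroblasts, but a 3′ count need not fall with the loss of a floxed exon and does not check the labels.

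The genes lie apart in the genome (GRCm38, GENCODE M21), and all 6 are protein-coding. Ptn (ENSMUSG00000029838) spans chr6:36714929-36810220 on the minus strand, and Mdk (ENSMUSG00000027239) chr2:91929805-91932297 on the minus strand. Sdc1 (ENSMUSG00000020592) is at chr12:8771323-8793715 on the plus strand, Sdc2 (ENSMUSG00000022261) at chr15:32920723-33034935 on the plus strand, Sdc3 (ENSMUSG00000025743) at chr4:130792537-130826319 on the plus strand and Sdc4 (ENSMUSG00000017009) at chr2:164424247-164443887 on the minus strand. Sdc3 overlaps the antisense genes Gm12970 and Gm26716. Of the 6 genes, 4 had a promoter in the RefSeq table used here. The stretches before Ptn and Sdc1 are shown because these genes had opposite levels across the main cell classes. They run from 250 to 74 bases before the RefSeq start (GRCm38.p6), Ptn at chr6:36810253-36810429 on the minus strand and Sdc1 at chr12:8771146-8771322 on the plus strand. Capitals mark matches on either strand to CANNTG (the E-box, a motif of basic helix-loop-helix factors such as SCX), CAGAC (a motif bound by Smad proteins) and GGGCGG (the GC box).
Ptn: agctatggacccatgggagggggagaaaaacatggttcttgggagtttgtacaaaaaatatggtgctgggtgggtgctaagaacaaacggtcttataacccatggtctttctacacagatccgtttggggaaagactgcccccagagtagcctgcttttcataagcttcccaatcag
Sdc1: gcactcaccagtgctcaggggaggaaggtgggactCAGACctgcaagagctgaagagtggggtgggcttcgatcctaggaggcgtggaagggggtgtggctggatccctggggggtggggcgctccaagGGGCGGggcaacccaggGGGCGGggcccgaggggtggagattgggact
The Ptn stretch held none of these motifs, and 47.5% of its bases were G or C. The Sdc1 stretch held 1 CAGAC and 2 GC boxes and no E-box, with 68.4% G or C against a median of 51.4% over all promoters. Over 32851 promoter stretches of the same length, 54.9% held CANNTG, 32.9% CAGAC and 20.6% GGGCGG. A match is a description of letters and not a site.

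Ptn was the most abundant of the 6 transcripts, and it was a gene of the Scx-low fibroblasts. In the wild-type library it was at 2548 CPM (2488 to 2609) in Scx-low fibroblasts and 647 (624 to 670) in Scx-high cells, a ratio of 3.94 (3.78 to 4.11). In the mutant library the levels were 4818 (4761 to 4875) and 1040.3 (979 to 1105), a ratio of 4.63 (4.36 to 4.93). Both classes were thus higher in the mutant library, by 1.89-fold (1.84 to 1.94) in Scx-low fibroblasts and 1.61-fold (1.5 to 1.73) in Scx-high cells. These comparisons share libraries, and the mutant fibroblasts alone held 27509 Ptn UMIs. Immune cells, used below as a measure of background, held Ptn at 103 and 342 CPM in the wild-type and mutant library. The part of this background in the ratios between libraries was not tested. Ptn is among the genes the study itself listed from these libraries, so its direction here is not independent evidence. The study listed it as higher in mutant cells than in wild-type tenocytes. That comparison crosses class and library, unlike the ratios within a class given here.

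Over whole libraries the difference was wider than within either class. All mutant cells together had 3.25-fold more Ptn in CPM than all wild-type cells (3.18 to 3.33). Scx-low fibroblasts gave 66.5% of the Ptn UMIs of the wild-type library and 93.0% of those of the mutant library, while they were 30.4% and 70.4% of its cells. The whole-library ratio therefore holds the class sizes together with the levels within classes.

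**Figure D1:**
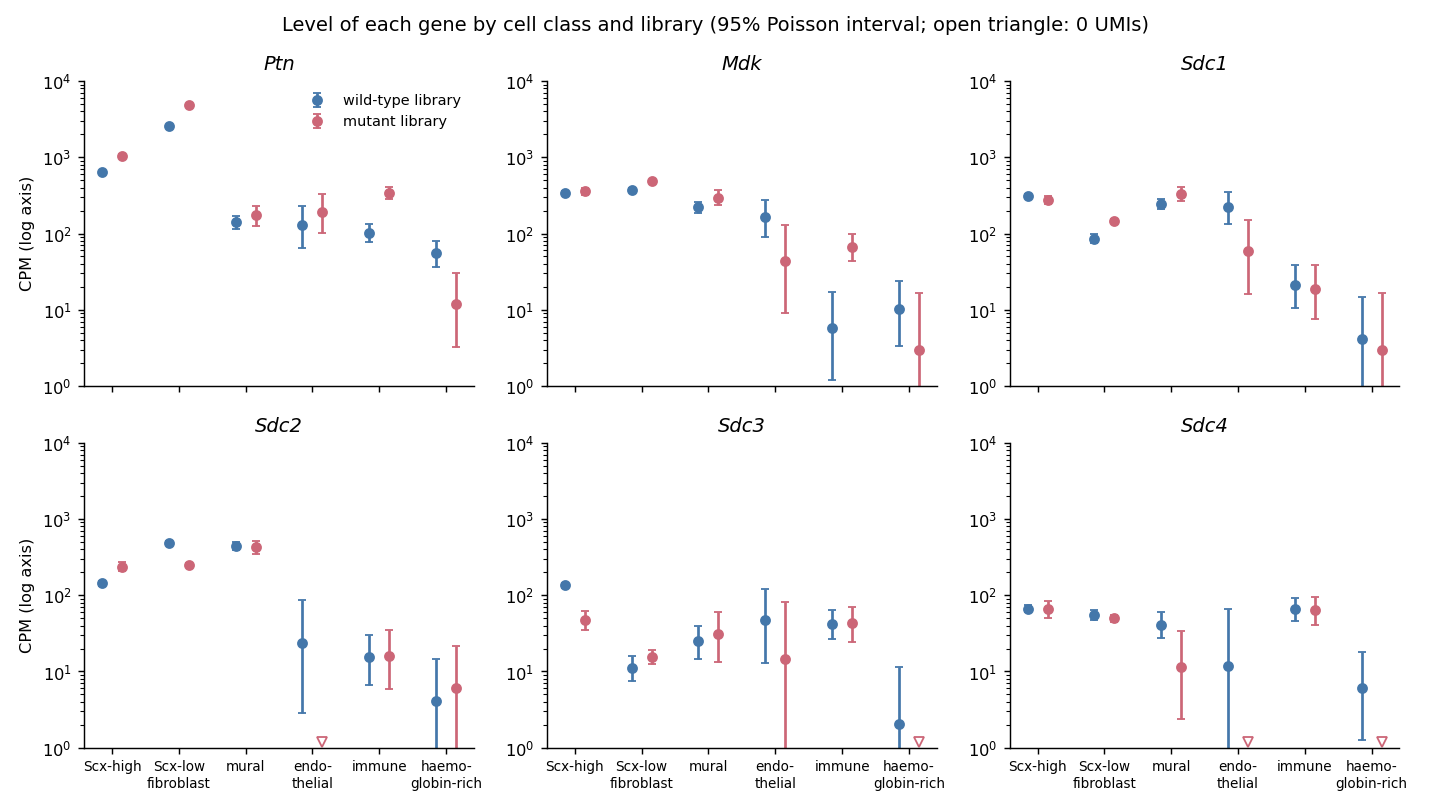
Level of each gene (CPM of the class, log axis) in 6 cell classes of the wild-type (blue) and mutant (red) library, with 95% Poisson intervals of counting error. Ptn is highest in Scx-low fibroblasts of both libraries, Sdc3 is highest in wild-type Scx-high cells at 135 CPM. Levels in haemoglobin-rich cells are per all UMIs, over 50% of which are haemoglobin.

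Single cells showed the same order. The median Scx-low fibroblast had 19.6 Ptn UMIs per 10000 UMIs in the wild-type library and 46.5 in the mutant one, and the median Scx-high cell 3.71 and 4.19. Cells with 40 or more per 10000 are the upper bins of the plot of Ptn over single cells. Cells with 1500 or more UMIs were also thinned to that depth. Those below it were left out, 41 of 719 wild-type and 166 of 1824 mutant fibroblasts. Of the Scx-high cells 84 of 1157 and 18 of 222 were left out. After thinning, Ptn was detected in 78.3% of wild-type and 86.6% of mutant fibroblasts and in 47.0% and 50.5% of Scx-high cells. Before thinning the shares of all cells were 87.2% and 92.1% of fibroblasts and 71.5% and 69.8% of Scx-high cells. Haemoglobin-rich cells, which should lack Ptn, gave thinned shares of 1.30% and 1.41%, although over 50% of their UMIs are haemoglobin. Per 1000000 UMIs of other genes, Ptn in these cells came to 1247 in the wild-type library, from 27 UMIs of which 23 were in 1 cell, and to 389 in the mutant one, from 4 UMIs. In Scx-high cells the share and median thus differed little between libraries, while the upper quartile was 7.94 per 10000 in the wild-type library and 13.7 in the mutant one.

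**Figure D2:**
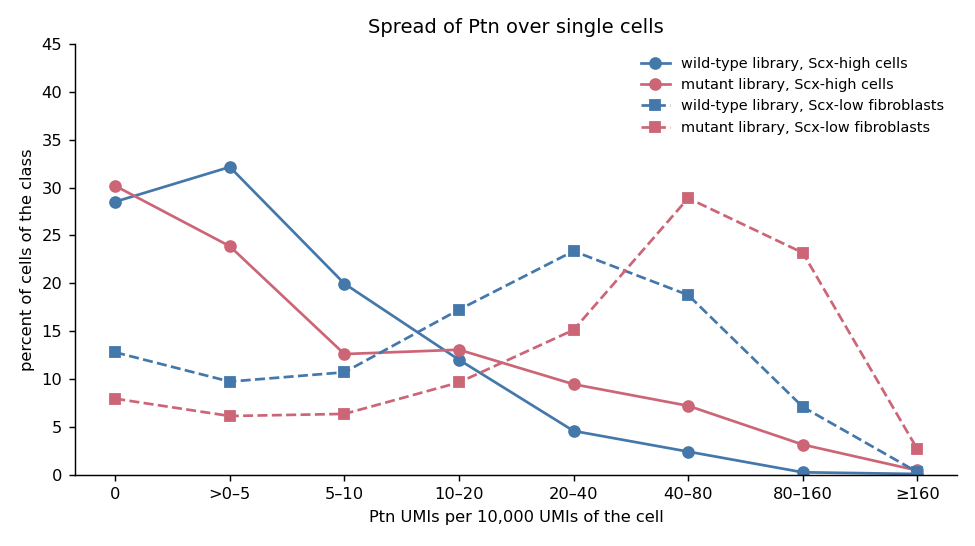
Percent of the cells of a class (vertical axis) by Ptn UMIs per 10000 UMIs of the cell (horizontal bins), for Scx-high cells (solid) and Scx-low fibroblasts (dashed) of the wild-type (blue) and mutant (red) library. The largest bin of fibroblasts is 20 to 40 in the wild-type library, with 23.4% of cells, and 40 to 80 in the mutant library, with 28.9%.

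Bins of Scx were made over Scx-high cells, Scx-low fibroblasts and unassigned cells, without the other classes. Ptn was lower the higher Scx was, from 10 Scx UMIs per 10000 upward. In the wild-type library Ptn was at 2430 (2429.9) CPM in cells with under 10 Scx UMIs per 10000, 3588 at 10 to under 30, 1791 at 30 to under 100, 610.4 at 100 to under 300 and 365 at 300 or more. The mutant library gave 4859, 3275, 1895, 825 and 442 in the same bins. The libraries were thus farthest apart where Scx was lowest, with a mutant over wild-type ratio of 2.00 (1.94 to 2.06). From 10 to under 30 it was 0.913 (0.835 to 0.997), from 30 to under 100 it was 1.06 (0.952 to 1.17), from 100 to under 300 it was 1.35 (1.18 to 1.54) and at 300 or more it was 1.21 (1.01 to 1.45). Each ratio within the Scx-high range was below the 1.61 of the pooled class. Background of Scx differed between the libraries. The median immune cell had 5.18 Scx UMIs per 10000 in the wild-type library and 0 in the mutant one. Low bins of the same Scx range may therefore hold different cells in each library, which was not tested.

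**Figure D3:**
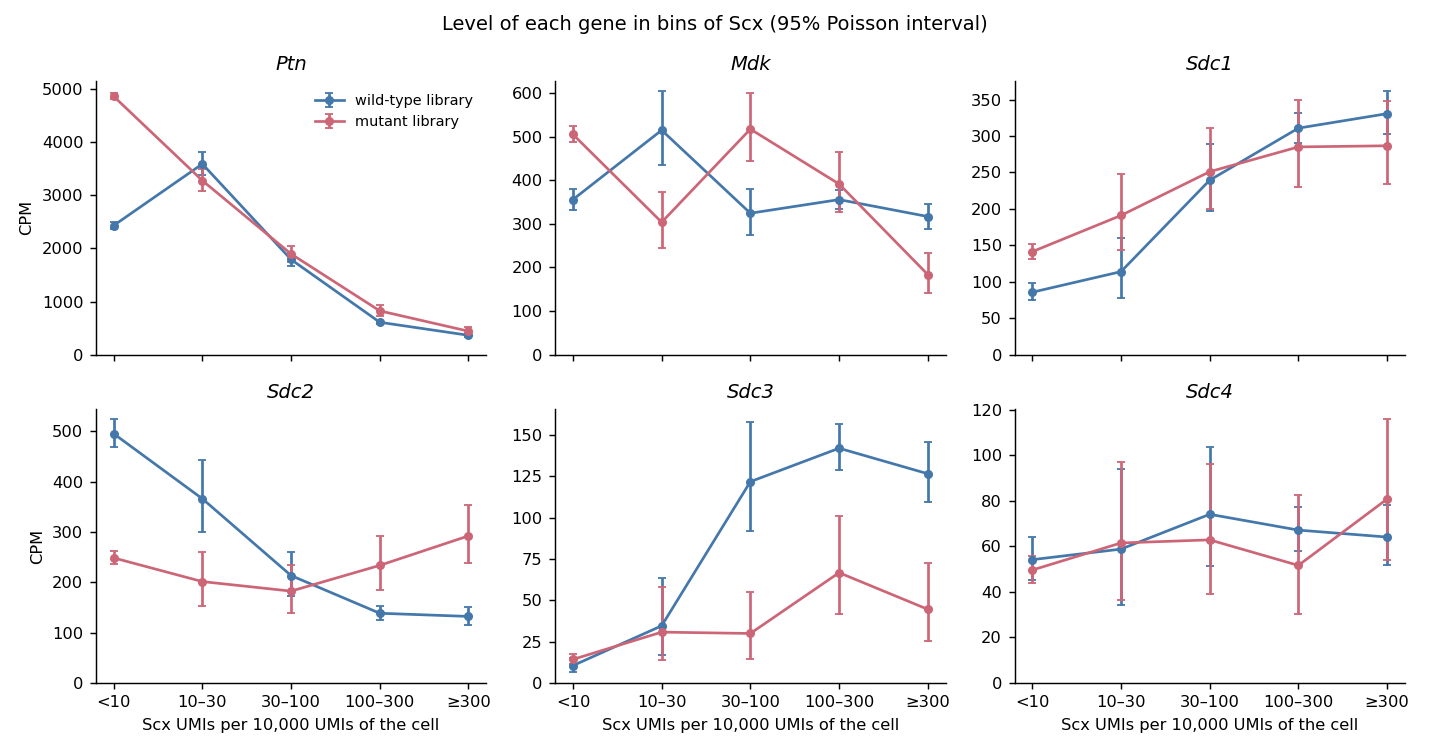
Level of each gene (CPM, linear axis from 0) in 5 bins of Scx UMIs per 10000 UMIs of the cell, in the wild-type (blue) and mutant (red) library, with 95% Poisson intervals of counting error. The bins hold Scx-high cells, Scx-low fibroblasts and unassigned cells only. From 10 Scx UMIs per 10000 upward Ptn is lower in each next bin of both libraries. Sdc3 stays higher in the wild-type library in the upper 3 bins.

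Cells with and without Col2a1 held different Ptn levels, and here the difference between libraries within Scx-high cells changed. Among wild-type Scx-high cells Ptn was at 496 CPM with 2 or more Col2a1 UMIs (881 cells) and 1280 (1279.5) with fewer (276 cells), a ratio of 0.388 (0.361 to 0.417). Among mutant Scx-high cells it was at 564 (28 cells) and 1110.3 (194 cells), a ratio of 0.508 (0.395 to 0.644). Mutant over wild-type was then 1.14 (0.888 to 1.43) in the cells with Col2a1 and 0.868 (0.797 to 0.945) in the cells with less of it. The pooled ratio of 1.61 in Scx-high cells was therefore found in neither sub-group. Median depth was 4588 and 3151.5 UMIs per cell for the wild-type sub-groups and 4177.5 and 4263 for the mutant ones, and the part of depth in the Col2a1 split was not tested. Among Scx-high cells with under 5 fibroblast marker UMIs (974 wild-type and 44 mutant cells, a choice made after the data were seen) the log2 ratio of Ptn was 1.21, above the 0.69 of the whole class.

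Within Scx-low fibroblasts the mutant library was higher for Ptn in all 6 sub-groups made by Pi16, Tnmd and cycling. The difference ran from 1.14-fold (1.02 to 1.26) in cycling cells to 2.04-fold (1.96 to 2.13) in cells without Tnmd. These sub-groups divide the same cells in different ways and are not 6 separate results. The low bins of Scx, which hold Scx-low fibroblasts and unassigned cells, did not share 1 direction. Mutant over wild-type was 2.00 (1.94 to 2.06) in the bin under 10 and 0.913 (0.835 to 0.997) from 10 to under 30. Fibroblasts with a UMI of Pi16, a gene of adventitial fibroblasts, had 1969 CPM in the wild-type library and 2884 in the mutant one, a ratio of 1.47 (1.39 to 1.54). Those without Pi16 had 3033 and 5354, a ratio of 1.77 (1.71 to 1.82). Cells with a Pi16 UMI were 42.8% of wild-type and 19.6% of mutant fibroblasts. Fibroblasts with a Tnmd UMI had 3222 and 5650 (5649.6) CPM of Ptn, and those without had 1943 and 3961. Ptn was thus higher in fibroblasts that held Tnmd, by 1.66-fold (1.58 to 1.74) in the wild-type library and 1.43-fold (1.39 to 1.46) in the mutant one.

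Cycling cells, with 2 or more UMIs over Mki67, Top2a, Birc5, Cdk1, Ccnb1 and Hmmr, gave opposite Ptn values in the Scx-high classes. Wild-type Scx-high cells had 1216 CPM when cycling (80 cells) and 591 when not, a ratio of 2.06 (1.87 to 2.26). Mutant Scx-high cells had 526 when cycling (32 cells) and 1166 when not, a ratio of 0.451 (0.365 to 0.551). Median Scx in these cycling cells was 146 and 145 per 10000, against 234 and 170.3 in the cells not cycling. In Scx-low fibroblasts the cycling cells were lower for Ptn in both libraries, at 0.872 (0.796 to 0.952) and 0.509 (0.479 to 0.541) of the others.

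Mdk was present in all stromal classes, highest in Scx-low fibroblasts and lowest in mural cells, though the intervals of Scx-high cells and Scx-low fibroblasts overlapped in the wild-type library and those of Scx-high and mural cells in the mutant one. In the wild-type library it was at 340.4 CPM (324 to 357) in Scx-high cells, 372 (350 to 396) in Scx-low fibroblasts and 222 (188 to 261) in mural cells. The mutant library gave 359 (324 to 398), 491 (473 to 510) and 296 (234 to 370.3). Its ratio of mutant over wild-type was 1.32 (1.23 to 1.42) in Scx-low fibroblasts and 1.06 (0.940 to 1.18) in Scx-high cells, where the interval covers 1 and the log2 value moved from 0.08 to -0.26 when set against the median of all genes. Ptn thus outnumbered Mdk by 1.90 UMIs to 1 in wild-type Scx-high cells and 6.84 to 1 in fibroblasts, and by 2.89 and 9.80 to 1 in the mutant library. Along Scx, Mdk had no steady course. It was lower in the mutant library at 300 or more Scx UMIs per 10000, with 184 against 317 CPM, and higher at 30 to under 100, with 517 against 324.

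Sdc1, best known from epithelia and plasma cells, was the main syndecan of Scx-high cells in the wild-type library. It was at 310.2 CPM (295 to 326) in wild-type Scx-high cells and 85.7 (75.1 to 97.5) in Scx-low fibroblasts, 3.62-fold lower in the latter. In the mutant library it was at 274 (243 to 309) and 145 (135 to 155), 1.89-fold lower in fibroblasts. Sdc2 in mutant Scx-high cells was at 237 (208 to 269), so the intervals of both genes overlapped there. Between libraries, Sdc1 in fibroblasts was 1.69-fold higher in the mutant (1.46 to 1.97), and in Scx-high cells the ratio was 0.885 with an interval of 0.776 to 1.01 that covers 1. Over all cells it was 0.727 (0.677 to 0.781), so the whole-library value lay below both class values. Scx-high cells gave 76.4% of the Sdc1 UMIs of the wild-type library and 22.6% of those of the mutant library. The study listed Sdc1 from these libraries too, as lower in mutant cells than in wild-type tenocytes. That comparison crosses class and library, as do the 145 and 310.2 CPM here. Sdc1 was higher in each higher bin of Scx, from 85.7 to 331 CPM in the wild-type library and from 141 to 287 in the mutant one, although the intervals of the upper bins overlapped.

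Sdc2, a syndecan of mesenchymal cells, differed between libraries in opposite directions in Scx-high cells and Scx-low fibroblasts. In Scx-low fibroblasts it was at 489 CPM (464 to 517) in the wild-type library and 248 (235 to 261) in the mutant one, a ratio of 0.507 (0.470 to 0.546). In Scx-high cells it was at 143 (133 to 155) and 237 (208 to 269), a ratio of 1.65 (1.42 to 1.92). The wild-type classes therefore stood 3.41-fold apart (3.11 to 3.75), and the mutant classes 1.04-fold, with an interval of 0.911 to 1.2 that covers 1. Sub-groups of fibroblasts kept the direction, with ratios of 0.633 (0.554 to 0.723) with Pi16, 0.461 (0.419 to 0.507) without Pi16, 0.515 (0.462 to 0.575) with Tnmd and 0.50 (0.450 to 0.556) without Tnmd. Within Scx-high cells the ratio was 1.63 (1.07 to 2.41) with 2 or more Col2a1 UMIs and 1.12 (0.916 to 1.36) with fewer. By Scx it was 0.855 (0.611 to 1.19) at 30 to under 100 UMIs per 10000, 1.69 (1.31 to 2.16) at 100 to under 300 and 2.21 (1.73 to 2.82) at 300 or more. The higher Sdc2 of mutant Scx-high cells was thus not seen in the lowest of these bins (84 mutant cells) or beyond counting error in the cells with little Col2a1 (194 mutant cells).

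Sdc3, the syndecan of neural tissue and of developing cartilage and muscle, was mainly a gene of Scx-high cells in the wild-type library. It was at 135 CPM (125 to 146) there and 11 (7.45 to 15.8) in Scx-low fibroblasts, 12.3-fold lower, and Scx-high cells gave 88.8% of its UMIs. Mutant Scx-high cells had 46.9 (34.6 to 62.2), and mutant fibroblasts 15.4 (12.4 to 19.0). Sdc3 in Scx-high cells was thus 2.89-fold lower in the mutant library, a ratio of 0.346 (0.253 to 0.465) from 653 and 48 UMIs. Within the bins of Scx the ratio was 0.245 (0.112 to 0.485) at 30 to under 100, 0.469 (0.291 to 0.721) at 100 to under 300 and 0.351 (0.197 to 0.586) at 300 or more. In both libraries it was higher with Col2a1, by 1.63-fold (1.29 to 2.08) and 3.09-fold (1.56 to 5.85). Mutant over wild-type was 0.782 (0.435 to 1.30) in cells with 2 or more Col2a1 UMIs, an interval that covers 1, and 0.413 (0.267 to 0.624) in cells with fewer. Thinned shares of Scx-high cells with Sdc3 were 16.2% and 7.84%, and in fibroblasts 1.33% and 2.23%.

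Sdc4, a widely expressed syndecan of focal adhesions, was low and near even. In Scx-high cells it was at 66.8 CPM (59.7 to 74.5) in the wild-type library and 65.4 (50.7 to 83.1) in the mutant one, and in Scx-low fibroblasts at 55.2 (46.7 to 64.8) and 49.7 (44.1 to 55.9). Mutant over wild-type was 0.980 (0.742 to 1.28) in Scx-high cells and 0.901 (0.737 to 1.11) in Scx-low fibroblasts, and both intervals cover 1.

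Summed over the family, Scx-high cells of the libraries had close levels with a different make-up. Syndecan UMIs came to 656 and 624 CPM in wild-type and mutant Scx-high cells. Sdc1, Sdc2, Sdc3 and Sdc4 made up 47.3%, 21.9%, 20.6% and 10.2% of them in the wild-type and 44.0%, 38.0%, 7.51% and 10.5% in the mutant library. Scx-low fibroblasts had 641 in the wild-type library and 458 in the mutant one, of which Sdc2 was 76.3% and 54.1% and Sdc1 13.4% and 31.7%. The plot of summed syndecans shows these proportions.

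**Figure D4:**
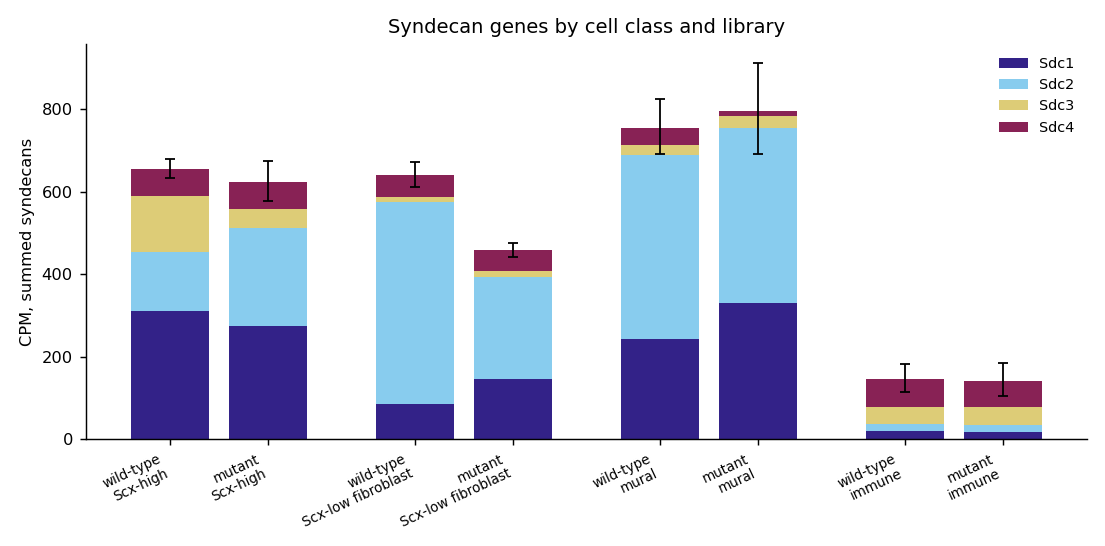
Summed level of the 4 syndecan genes (CPM of the class, bars from 0), split by gene, in 4 cell classes of each library, with the 95% Poisson interval of the sum as a black bar. Sdc2 makes up 76.3% of the syndecan UMIs in wild-type and 54.1% in mutant Scx-low fibroblasts, and Sdc3 20.6% and 7.51% in Scx-high cells.

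Counted at a 2-fold limit, the 6 genes can be read against all genes with at least 20 CPM in either group. Mutant over wild-type in Scx-high cells, none of the 6 was at least 2-fold higher where 13.6% of 5428 genes were, and 1 (Sdc3) was at least 2-fold lower where 4.33% were. The same comparison in Scx-low fibroblasts had 5 of the 6 genes above the level limit (Sdc3 was not), and none was 2-fold higher or lower, beside 3.44% and 4.88% of 5843 genes. Between fibroblasts and Scx-high cells of the wild-type library, 2 (Ptn and Sdc2) were higher beside 19.9% of 5749 genes, and 2 (Sdc1 and Sdc3) were lower beside 4.92%. In the mutant library 1 (Ptn) was higher beside 8.75% of 5837 genes, and 1 (Sdc3) lower beside 6.1%.

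The middle of all genes was not at 0 in each comparison. Its median log2 ratio was 0.34 for mutant over wild-type in Scx-high cells and 0.47 for fibroblasts over Scx-high cells of the wild-type library, and -0.04 and 0.07 in the other two. Relative to that median, mutant over wild-type in Scx-high cells was 0.34 for Ptn, -0.26 for Mdk, -0.52 for Sdc1, 0.38 for Sdc2, -1.87 for Sdc3 and -0.37 for Sdc4 on the log2 scale. Across the 5 genes tested in fibroblasts, the median log2 ratio of mutant over wild-type was 0.40, beside -0.04 for all genes. Those genes ran from -0.98 for Sdc2 to 0.92 for Ptn. In the other comparisons the median of the 6 genes lay below that of all genes. It was 0.02 beside 0.34 in Scx-high cells, and -0.07 beside 0.47 and -0.17 beside 0.07 between the wild-type and mutant classes.

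**Figure D5:**
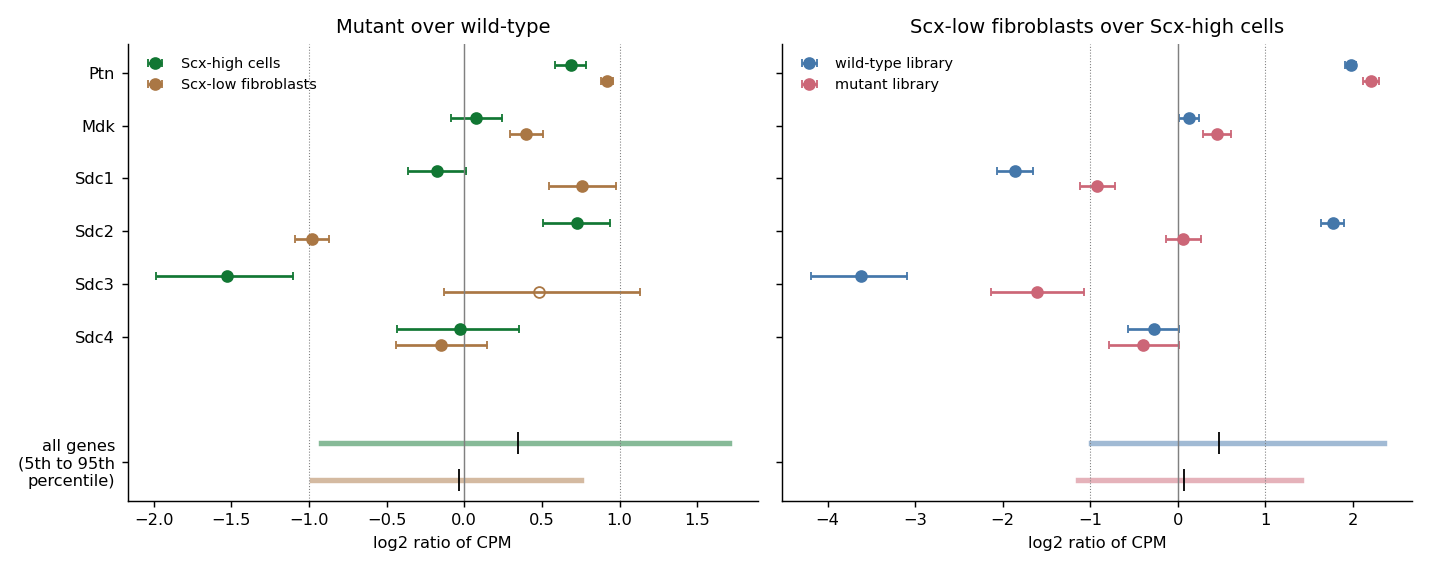
Log2 ratios of CPM for each gene with 95% intervals of counting error, mutant over wild-type in both fibroblast classes (left) and Scx-low fibroblasts over Scx-high cells in both libraries (right), where an open circle is below the level limit and dotted lines mark 2-fold. The bars at the foot span the 5th to 95th percentile of all genes with their median as a tick, and Sdc2 in the left panel stands at 0.73 in Scx-high cells and -0.98 in Scx-low fibroblasts.

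Mural cells carried Sdc1 and Sdc2 without much Ptn. Sdc2 was at 446 CPM (397 to 499) in the wild-type library and 423 (348 to 510.1) in the mutant one, and Sdc1 at 243 (207 to 283) and 331 (265 to 409). Their Sdc2 level lay close to that of wild-type Scx-low fibroblasts, and mutant over wild-type was 0.948 (0.755 to 1.18). Fibroblast markers reached 5 UMIs in 96 of 139 wild-type and 40 of 82 mutant mural cells, and the part of other cells in the Sdc2 level was not tested. Sdc3 and Sdc4 were low in mural cells, with 17 and 8 UMIs of Sdc3 and 28 and 3 of Sdc4, whose mutant over wild-type ratio was 0.280 (0.0545 to 0.906). The 28 wild-type UMIs of Sdc4 lay in 14 cells, with 10 of them in 1 cell, and the interval does not cover such clumping. Ptn in mural cells was at 139.9 (113 to 171) and 173 (126 to 232), and the part of free RNA in these levels was not tested. Endothelial cells were few, with 19 and 4 Sdc1 UMIs and 2 and 0 Sdc2 UMIs. The 0 in 24 mutant endothelial cells allows up to 44.3 CPM if 0 UMIs are taken to allow 3. The upper end of its Poisson interval is 54.4 CPM. Schwann-marker cells, of which there were 56 in the mutant library and 1 in the wild-type, had Ptn at 1390 (1389.9) CPM in the mutant (1210.4 to 1589), and no comparison was possible. Of these 56 cells 28 had a Ptn UMI, and 1 cell held 39 of the 215 UMIs. Fibroblast markers reached 5 UMIs in 20 of the 56, and the part of other cells or free RNA in this level was not tested.

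Immune cells, which were not expected to hold tendon transcripts, gave a measure of background. Free RNA and cells caught together were not told apart in it. The Ptn UMIs lay in 18 of 192 wild-type cells, with 18 UMIs in 1 cell. In the mutant library they lay in 32 of 187 cells, with 30 UMIs in 1 cell. Fibroblast markers reached 5 UMIs in 5 and 13 immune cells. In the wild-type library Scx, Tnmd, Fmod and Col1a1 in immune cells were at 9.25%, 8.85%, 9.18% and 9.26% of their level over both fibroblast classes together, and Col3a1 at 3.79%. Ptn was at 7.70%, Sdc1 at 9.28% and Sdc2 at 5.77%, which is within or close to that range, and Mdk at 1.65%. Sdc4 was at 105% and Sdc3 at 47.0%, above it. Mutant immune cells held Scx at 1.68%, Col3a1 at 10.8%, Tnmd at 8.27%, Fmod at 12% and Col1a1 at 8.37%, with Ptn at 8.06%, Mdk at 14.2%, Sdc1 at 11.4%, Sdc4 at 123% and Sdc3 at 212%. Sdc4 in immune cells was at 65.8 (45.6 to 91.9) and 64.2 (41.1 to 95.5) CPM, a ratio of 0.975 (0.553 to 1.69), and Sdc3 at 42.6 (26.7 to 64.5) and 42.8 (24.5 to 69.5), a ratio of 1.0 (0.493 to 2.00). The 3.34-fold higher Ptn of mutant immune cells (53 and 128 UMIs) stands beside this background and is not read as expression.

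Other genes of the pathway were taken from 5 lists of 66 genes in all, covering receptors, syndecan adaptors, shedding, heparan sulphate synthesis and other heparan sulphate proteoglycans. Ptprz1, a receptor phosphatase for PTN, had 5 and 1 UMIs in wild-type and 10 and 8 in mutant Scx-high cells and Scx-low fibroblasts. The receptor kinases Alk and Ltk had none. If 0 UMIs are taken to allow 3, this is up to 2.93 CPM in mutant Scx-high cells, the smallest of these sums. Lrp1, Ncl and Itgb1, other binding partners of these cytokines, were at 311, 205 and 259 CPM in wild-type Scx-high cells and 283, 266 and 349 in Scx-low fibroblasts. Mutant over wild-type was 1.24 (1.14 to 1.35) for Lrp1 in Scx-low fibroblasts and 0.849 (0.743 to 0.967) in Scx-high cells, and none of these 3 genes passed 2-fold in either class.

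In Scx-high cells 33 of the 66 genes passed the level limit, and 11 were at least 2-fold higher in the mutant library and none lower, beside 13.6% and 4.33% of all genes. Their median log2 ratio was 0.57 beside 0.34 for all genes. The highest were Gpc1, a glypican, at 9.33 and 39.1 CPM (4.19-fold, 2.67 to 6.56), the actin crosslinker Actn1 at 59.1 and 200.2 (3.39-fold, 2.82 to 4.07) and the metalloproteinase inhibitor Timp1 at 489 and 1444 (2.95-fold, 2.76 to 3.15). In Scx-low fibroblasts 38 genes passed, with 3 higher and 4 lower, beside 3.44% and 4.88% of all genes, and a median of -0.23 beside -0.04. The 3 higher genes were the proteases Mmp2, from 370 (369.9) to 803 CPM (2.17-fold, 2.03 to 2.33), Mmp14, from 331 to 709 (2.14-fold, 1.99 to 2.30), and Adamts1, from 54.5 to 111 (2.04-fold, 1.70 to 2.45). Integrin genes Itgb3 and Itga6 were lower, at ratios of 0.186 (0.125 to 0.271) and 0.211 (0.149 to 0.296), as was Ezr, a linker of membrane proteins to actin, at 0.373 (0.304 to 0.458).

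Between the classes of the wild-type library 38 genes passed, with 11 higher in Scx-low fibroblasts and none lower, beside 19.9% and 4.92% of all genes, and a median log2 ratio of 0.54 beside 0.47. Itgb3 had 100 UMIs in Scx-low fibroblasts and 2 in Scx-high cells, a ratio of 88.8 with a wide counting interval of 23.9 to 743. The glypican Gpc3 was 13.1-fold higher (10.8 to 16.2) and Itga6 6.38-fold (4.28 to 9.76). In the mutant library 34 genes passed, with 4 higher and 4 lower, beside 8.75% and 6.1% of all genes. Gpc3 was 5.55-fold higher in fibroblasts (4.14 to 7.62), Tgfbr3, the proteoglycan co-receptor of TGFβ, 2.90-fold (1.85 to 4.82) and Gpc4 2.66-fold (1.73 to 4.30), while Timp1 (ratio 0.259), Actn1 (0.418) and the heparan sulphatase Sulf2 (0.446) were lower.

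Genes with the most similar pattern to 5 of the 6 are given, sought over 10 profiles, 5 classes in 2 libraries, among 5686 genes on the scale of log2 of CPM plus 10. For Ptn they were Itm2a (Pearson r = 0.958), Chodl (0.942) and Sfr1 (0.930). Mdk was nearest to Tbrg1 (0.973), Abhd14a (0.966) and Ccdc102a (0.962), and Sdc1 to Shisa4 (0.916), Lamb2 (0.912) and Ccs (0.907). Sdc2 had the closest partners in Mrgprf (0.973), Klf9 (0.968) and Prrx1 (0.965), a mesenchymal transcription factor. Sdc4 was nearest to Gabarap (0.925), Smim20 (0.924) and Adprhl2 (0.914). These values describe 10 profiles that share 2 libraries, and the endothelial profiles rest on few cells.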

How the data were processed

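Single-cell RNA was sequenced with a droplet 3′ kit from 1 library per condition, each a pool of 2 pups at P7. The authors aligned reads to mm10 with Cell Ranger, kept barcodes by their total UMI count and deposited whole-number UMI counts per gene and cell, without normalization. The submitters' processing notes name version 1.2.0 of Cell Ranger, and the methods name a later one. All barcodes were used, and 2 occurred in both libraries. Cells held 948 to 14358 UMIs in the wild-type and 903 to 15968 in the mutant library.

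Classes were assigned in order: over 50% haemoglobin UMIs, then 5 or more UMIs over lists for immune, endothelial, mural, Schwann or muscle cells (8 and 13 cells with 2 lists were left out), then Scx-high, then Scx-low fibroblasts. Counts were summed per class and scaled to CPM (UMIs per 1000000 UMIs). Levels have exact Poisson, shares exact binomial and ratios exact conditional intervals at 95%. Only the ratio intervals were tried on simulated data. These were Poisson counts, the model the intervals assume, so clumping of counts by cell was not covered. No test was run. Scrublet called 26 and 8 doublets, which stayed in. The genes named are the 6 genes, up to 3 pathway genes past 2-fold in each direction of each comparison, the 3 genes most like each member in pattern (for Sdc3 not reported here), class markers and Tgfbr2. Ptprz1, Alk, Ltk, Lrp1, Ncl and Itgb1 were named beyond this rule. The members and lists were chosen with earlier results of these data known. Alternatives were other Scx and marker thresholds, class order, a cell filter, doublet removal, other scalings and other level limits. Python 3.11.15, NumPy 2.4.6, SciPy 1.17.1 and scanpy 1.11.5 were used.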

Additional observations from a re-analysis of the deposited data

Results flagged for a closer look

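The difference of Sdc2 between libraries went opposite ways in the fibroblast classes. Mutant over wild-type was 1.65 in Scx-high cells and 0.507 in Scx-low fibroblasts, and neither counting interval reached 1. Within Scx-high cells the interval did cover 1 in those with under 2 Col2a1 UMIs (1.12, 0.916 to 1.36) and in those with 30 to under 100 Scx UMIs per 10000 (0.855, 0.611 to 1.19). The difference was not tested, since each condition had 1 library.

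Cycling over non-cycling Scx-high cells went opposite ways in the libraries for both cytokines. For Ptn the ratio was 2.06 among wild-type cells and 0.451 among mutant ones, and for Mdk it was 1.35 (1.15 to 1.57) and 0.671 (0.491 to 0.902). These differences were not tested, and they rest on 80 and 32 cycling cells.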

How the results depend on the processing

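The counts of the 6 genes past 2-fold were recomputed under each alternative, and 123 of these values stayed as reported. The number at least 2-fold higher in mutant Scx-high cells went from 0 to 1 (Ptn) with a mean over cells in place of summed UMIs, and to 1 (Ptn) with Scx-high cells under 5 fibroblast marker UMIs, added after the data were seen. The number at least 2-fold lower in mutant fibroblasts against Scx-high cells went from 1 to 0 at a level limit of 50, since Sdc3 no longer passed it. No called ratio changed direction, and the small ratios of Mdk and Sdc4 in Scx-high cells, of Mdk between classes in both libraries and of Sdc2 between mutant classes changed sign.

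Counts over all genes depended on the setting. Centring on the median gene gave 422 higher and 448 lower genes in place of 736 and 235 for mutant Scx-high cells, and 597 and 571 in place of 1143 and 283 for wild-type fibroblasts over Scx-high cells. Leaving the 20 highest genes out of the sums, the lower genes were 442 and 516. Without the level limit the higher and lower genes were 2909 and 3030 (mutant Scx-high cells), 2575 and 2175 (mutant fibroblasts), 4280 and 2058 (wild-type classes) and 4431 and 1682 (mutant classes). At a limit of 50 they were 352 and 123, 111 and 152, 570.0 and 167, and 248 and 189. With Scx-high cells under 5 fibroblast marker UMIs they were 1772 and 555 for mutant Scx-high cells and 998 and 861 for the mutant classes.

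No paired analysis was possible because each condition had 1 library, and there was no replicate to leave out. Depth limits Sdc3 outside wild-type Scx-high cells and all 6 genes in endothelial cells.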
